A study of Mus musculus with 12 samples.

Results

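Kruppel-like factors are transcription factors that bind GC-rich DNA, and the transcripts of 10 of them were followed in KP1, a line of mouse tumour cells labelled as lung adenocarcinoma (LUAD). The genes were taken by symbol from the deposited table of 35013 genes: Klf2, Klf3, Klf4, Klf5, Klf6, Klf7, Klf9, Klf10, Klf11 and Klf13. All 10 were among the 13502 genes that passed the filter on low counts. Poly-A RNA was sequenced from 4 groups of 3 libraries, which the series design calls biological replicates. They were NRF2-overexpressing cells with romidepsin, empty vector (EV) cells with romidepsin, NRF2 cells with DMSO and EV cells with DMSO. NRF2 is the transcription factor that drives antioxidant genes, romidepsin inhibits class I histone deacetylases, and DMSO is the solvent. Romidepsin was given at 5 nM, and both treatments lasted 16 h. The labels name 1 parental line and do not say whether each vector line is a clone, a pool or more than 1 transduction, so p-values measure the spread between these libraries. The purpose named in the series title is HDAC inhibition in tumours with active NRF2.

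Proteins of this family share a run of zinc fingers at the C-terminus, which reads GC boxes and CACCC boxes, and differ in the N-terminal part that recruits partners. Klf2, Klf4, Klf5, Klf6 and Klf7 are known mainly as activators that work with acetyltransferases, though some of them also repress. Klf3 represses through the corepressor CtBP, and Klf9, Klf10, Klf11 and Klf13 bind the Sin3A complex, which carries histone deacetylases. Klf2 was first described as a lung factor and is known for quiescence in lymphocytes and endothelium, and Klf5 is known in the maturation of the lung epithelium.

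Promoter sequence from RefSeq (GRCm38.p6) was at hand for 8 of the 10 genes, as windows of 250 bases before and 50 after the start site. The members without one are Klf5 and Klf10. Distances are from the start site of the RefSeq window, which is the edge of the RefSeq gene in 7 of the 8 and lies 956 bases inside it for Klf7. GENCODE, whose gene positions are used further on, places the start 29 bases upstream of the window's start site for Klf2 and 9 bases downstream of it for Klf4, and at the same base for Klf9 and Klf13. The 250 bases before the start are shown for the 2 genes that romidepsin raised (Klf2 and Klf4) and for 2 of those it lowered (Klf9 and Klf13), since these pairs moved in opposite directions. Capitals mark GC boxes, TATA boxes and the MEF2 site, on either strand. The Klf2 stretch is chr8:72318812-72319061 on the plus strand, the Klf4 stretch chr4:55532476-55532725 on the minus strand, the Klf9 stretch chr19:23140976-23141225 on the plus strand and the Klf13 stretch chr7:63938916-63939165 on the minus strand.
Klf2: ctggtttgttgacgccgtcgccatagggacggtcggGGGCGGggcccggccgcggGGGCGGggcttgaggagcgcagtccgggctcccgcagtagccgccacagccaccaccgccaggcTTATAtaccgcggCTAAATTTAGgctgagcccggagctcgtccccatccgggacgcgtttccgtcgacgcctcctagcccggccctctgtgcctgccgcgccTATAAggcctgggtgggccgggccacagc
Klf4: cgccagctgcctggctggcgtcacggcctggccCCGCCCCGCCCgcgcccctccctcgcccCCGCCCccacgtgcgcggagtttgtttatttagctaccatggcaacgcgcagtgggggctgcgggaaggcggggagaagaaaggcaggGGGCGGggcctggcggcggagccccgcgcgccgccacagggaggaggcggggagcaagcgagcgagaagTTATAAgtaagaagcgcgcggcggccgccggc
Klf9: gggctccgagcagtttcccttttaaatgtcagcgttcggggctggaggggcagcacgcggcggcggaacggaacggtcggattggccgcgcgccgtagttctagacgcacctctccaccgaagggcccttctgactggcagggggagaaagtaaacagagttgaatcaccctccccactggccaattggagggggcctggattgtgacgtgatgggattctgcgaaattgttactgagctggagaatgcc
Klf13: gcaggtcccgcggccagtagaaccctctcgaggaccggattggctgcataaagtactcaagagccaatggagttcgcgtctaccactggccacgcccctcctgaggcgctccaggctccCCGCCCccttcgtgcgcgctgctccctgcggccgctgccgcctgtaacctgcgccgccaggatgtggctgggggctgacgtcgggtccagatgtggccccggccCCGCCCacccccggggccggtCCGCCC

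The windows of Klf2 and Klf4 both held a TATA box (letters TATAA) close to the RefSeq start, with the first base at -29 in Klf2 and at -32 and -31, on opposite strands and overlapping, in Klf4. The Klf2 match therefore begins at the GENCODE start of that gene rather than before it. Klf2 held a further TATAA match at -131 and the MEF2 site at -118, the kind of site through which the kinase ERK5 is known to drive Klf2. No TATA box was found in the windows of the other 6 members, of which that of Klf7 lies inside the gene. The TATA box was thus in 2 of 8 windows (2 of 7 without Klf7), against 24.9% of 32851 promoter windows. A GC box, searched as GGGCGG, was found in 7 of the 8 windows (6 of 7 without Klf7), against 35.7% of all windows. The Klf9 window was the one without a GC box, and its GC content was 63.3%, against 69.3% for Klf2, 74.3% for Klf4, 72.0% for Klf13 and a median of 52.7% over all windows. The 8 member windows spanned 58.3% to 77.7%, and the shares over all windows were not matched for GC content. The MEF2 site was in 3.19% of all windows. The remaining motifs were searched on both strands as well. CACCC was in 5 of 8 windows (4 of 7 without Klf7) against 57.5% of all, and the palindrome CACGTG, an E-box, in those of Klf4, Klf6 and Klf11 against 7.15%. The core of the antioxidant response element, through which NRF2 binds, was searched as TGACNNNGC and was in the windows of Klf3 and Klf6, against 12.4% of all. The cyclic AMP response element TGACGTCA was in 0 of 8, against 1.79%. Adjacent GC and CACCC boxes can share bases, and a match is a stretch of letters and not a bound site.

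**Figure D1:**
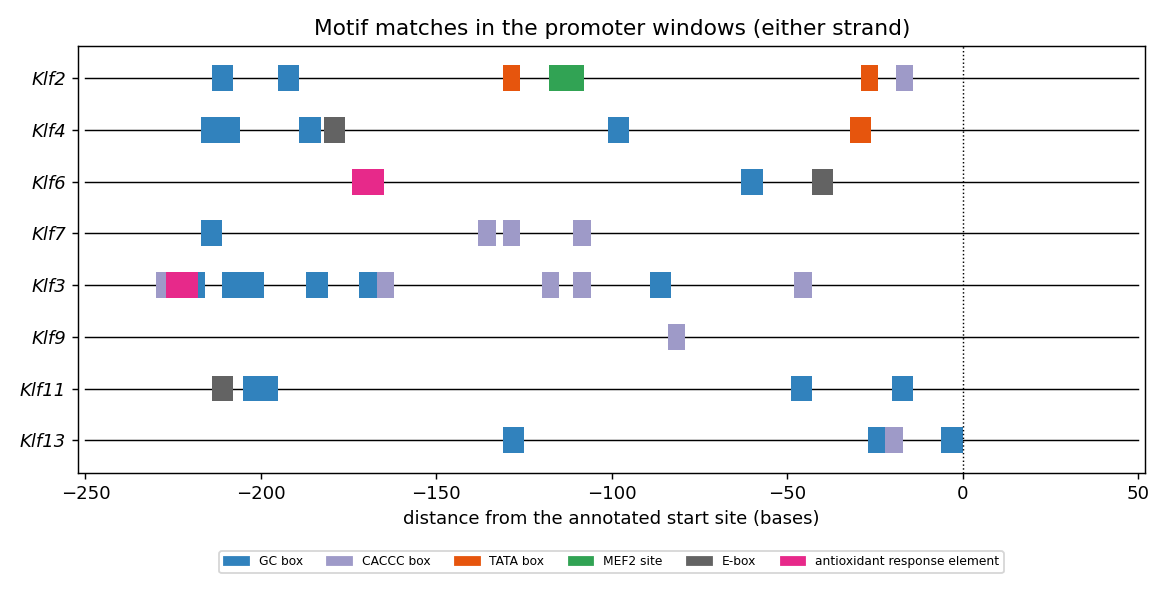
Matches of the 6 motifs found in the promoter windows of 8 Kruppel-like factor genes, by distance in bases from the RefSeq start site of the window (dotted line), which for Klf7 lies inside the gene, on either strand; boxes span the match. TATA boxes are seen in Klf2 and Klf4, at -131 and -29 and around -31, and the MEF2 site in Klf2 at -118.

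The libraries held 16842824 to 28003010 estimated counts, so that 3 counts were worth 0.105 to 0.182 CPM (TMM-scaled counts relative to a fixed total per library). Replicate 3 of NRF2 cells with DMSO stood apart: its root mean square log2 distance from its replicates was 0.465, and that of the other 11 libraries 0.255 to 0.350. Pairs that include it had a chi-square over its degrees of freedom of 32.4 and 40.9, and other replicate pairs 2.40 to 9.35. Nfe2l2, which encodes NRF2, followed the labels at 349 ± 13.8 CPM in NRF2 cells and 96.3 ± 2.90 CPM in EV cells with romidepsin, and at 305 ± 40.7 and 102 ± 1.37 CPM with DMSO (SD, n = 3). Of the markers for lung epithelium, keratins 7, 8, 18 and 19 were abundant, and Cdh1 had group means of 227 to 417 CPM. The lung factor Nkx2-1 and the surfactant genes Sftpb, Sftpc and Sftpd were at or near 0 (at most 0.246 CPM in any library). With DMSO Epcam had 4 counts over the 3 NRF2 libraries and 2 over the 3 EV libraries. With romidepsin it was at 7.23 ± 0.213 CPM in NRF2 cells and 3.59 ± 0.525 CPM in EV cells. Levels here are over all cells of a culture, so fewer cells of a kind and less RNA per cell cannot be told apart.

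Romidepsin moved 8 of the 10 transcripts in the same direction in both lines. Klf2 and Klf4 rose, Klf3, Klf7, Klf9, Klf10, Klf11 and Klf13 fell, and Klf5 and Klf6 did not pass the test. In NRF2 cells 2 members were higher and 6 lower, against 40.5% and 39.3% of all genes tested, and in EV cells also 2 and 6, against 39.1% and 37.4% (edgeR adjusted p under 0.05). In either direction 79.8% of all genes were called in NRF2 cells and 76.5% in EV cells, so 8 of 10 is near the background. Without overlap between romidepsin and DMSO libraries, 2 members were higher and 6 lower in NRF2 cells, against 40.8% and 39.0% of all genes (79.8% in either direction), and 3 and 6 in EV cells, against 41.1% and 39.9% (81.0%); the further one in EV cells was Klf6. Genes higher in both lines made up 35.7% of those tested and genes lower in both 34.6%. The median log2 fold change of the 10 was -0.58 in NRF2 cells and -0.38 in EV cells, and that of all genes 0.02 and 0.01.

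**Figure D2:**
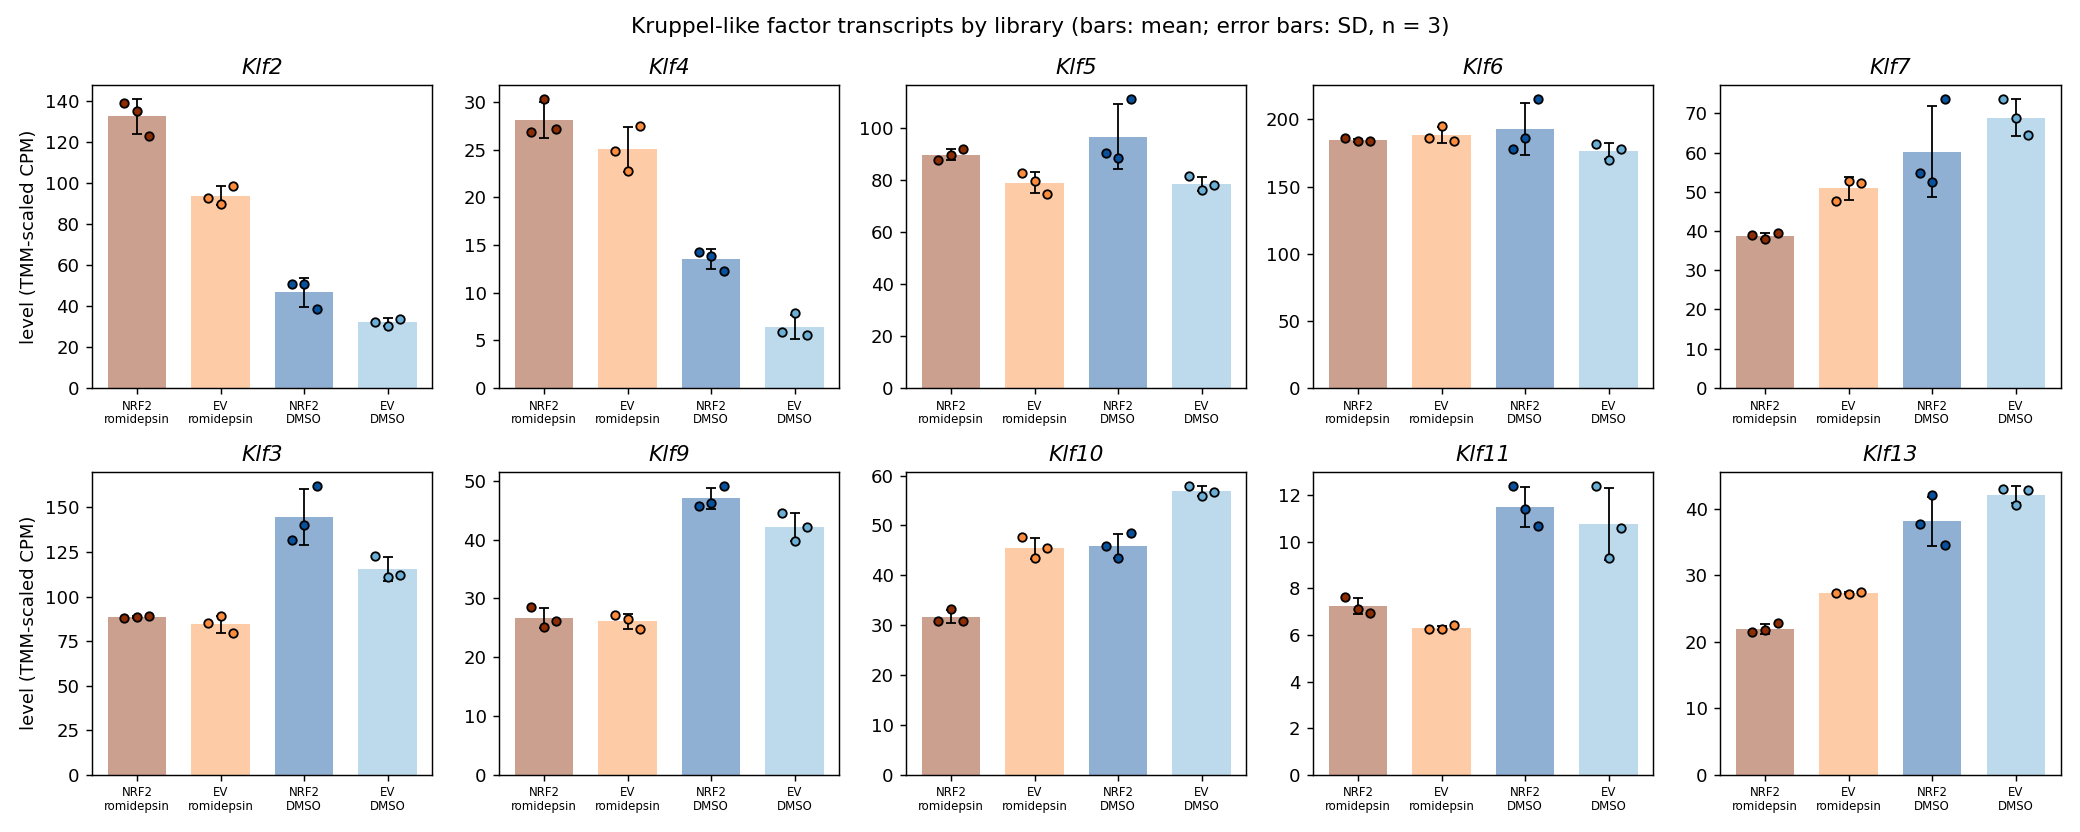
Level of each transcript in TMM-scaled CPM, with 1 point per library, bars for the mean of 3 libraries and error bars for the SD; the scale differs between panels and starts at 0. Klf2 reached 123 to 139 CPM in NRF2 cells with romidepsin and 30.0 to 33.8 CPM in EV cells with DMSO, while Klf6 stayed between 170 and 215 CPM in all libraries.

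Among the activators, Klf2 (chromosome 8, 72319033 to 72321656, plus strand, GRCm38; ENSMUSG00000055148.7) measured 139, 135 and 123 CPM in NRF2 cells with romidepsin, against 50.7, 50.6 and 38.5 CPM with DMSO. In EV cells its levels were 92.8, 89.5 and 98.6 CPM with romidepsin, against 32.2, 30.0 and 33.8 CPM with DMSO. All romidepsin libraries lay above all DMSO libraries, and in each treatment all NRF2 libraries lay above all EV libraries. The romidepsin rise was 2.83-fold in NRF2 cells (log2 1.499 ± 0.087, SE; edgeR adjusted p = 3.77e-10) and 2.92-fold in EV cells (1.55 ± 0.09; 5.71e-10). Of all genes tested, 86.5% had a lower log2 fold change in NRF2 cells and 87.7% in EV cells. The difference between the lines was -0.05 on the log2 scale, with a 95% interval of -0.31 to 0.22 (edgeR adjusted p = 0.85).

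Klf4 (chromosome 4, 55527143 to 55532466, minus strand; ENSMUSG00000003032.8), a factor of epithelial barriers and of growth arrest, was at 26.9, 30.3 and 27.2 CPM in NRF2 cells with romidepsin and at 14.3, 13.9 and 12.3 CPM with DMSO. EV cells had 24.9, 22.8 and 27.5 CPM with romidepsin and 5.82, 7.82 and 5.52 CPM with DMSO. The lines overlapped with romidepsin and did not overlap with DMSO, where every NRF2 library was above every EV library. Romidepsin raised it 2.08-fold in NRF2 cells (log2 1.06 ± 0.10; edgeR adjusted p = 3.8e-08) and 3.97-fold in EV cells (1.99 ± 0.12; 3.7e-11). The rise was smaller in NRF2 cells by 0.93 ± 0.16 on the log2 scale (log2 difference -0.93, 95% interval -1.26 to -0.60; edgeR adjusted p = 0.000605). It was the 1 member of 10 called in this test of the difference, which called 10.2% of all genes as lower and 5.53% as higher in NRF2 cells. Without replicate 3 of NRF2 cells with DMSO the log2 difference was -1.01 (edgeR adjusted p = 9.26e-06).

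Klf5 (chromosome 14, 99298691 to 99315036, plus strand; ENSMUSG00000005148.8), which favours proliferation of epithelial cells, had 87.6, 89.6 and 91.9 CPM in NRF2 cells with romidepsin and 90.5, 88.6 and 111 CPM with DMSO. EV cells had 82.6, 79.6 and 74.6 CPM with romidepsin and 81.5, 76.1 and 78.1 CPM with DMSO. Romidepsin and DMSO libraries overlapped in both lines. The log2 fold change was -0.10 in NRF2 cells (95% interval -0.25 to 0.04; edgeR adjusted p = 0.175) and 0.01 in EV cells (-0.14 to 0.16; 0.938). Leaving out replicate 2 of NRF2 cells with DMSO gave a call in NRF2 cells (log2 -0.17, edgeR adjusted p = 0.0334). Klf6 (chromosome 13, 5861482 to 5870394, plus strand; ENSMUSG00000000078.7), an activator of growth-inhibitory genes, had 186, 184 and 184 CPM in NRF2 cells with romidepsin, 186, 195 and 184 CPM in EV cells with romidepsin, 178, 186 and 215 CPM in NRF2 cells with DMSO and 182, 170 and 178 CPM in EV cells with DMSO. The 12 libraries spanned 170 to 215 CPM. Its log2 fold change with romidepsin was -0.06 in NRF2 cells (95% interval -0.19 to 0.06; edgeR adjusted p = 0.315) and 0.09 in EV cells (-0.03 to 0.21; 0.153).

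The Klf6 result depended on the scaling. Upper-quartile factors and library size alone moved the median log2 fold change of all genes by 0.11 and 0.12 in EV cells and by 0.11 and 0.14 in NRF2 cells. With them the Klf6 difference in EV cells was called at log2 0.20 and 0.21 (edgeR adjusted p = 0.0047 and 0.00275), and the signs of Klf5 and Klf6 in NRF2 cells turned positive without a call. Klf6 in EV cells was also called without replicate 3 of NRF2 cells with DMSO (log2 0.09, edgeR adjusted p = 0.022) and with the EV groups fitted alone (0.11, 0.00899).

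Klf7 (chromosome 1, 64029447 to 64122282, minus strand; ENSMUSG00000025959.13), known from the growth of neurons, was the activator that fell. It had 39.1, 38.0 and 39.4 CPM in NRF2 cells with romidepsin and 54.8, 52.4 and 73.6 CPM with DMSO, and 47.6, 52.9 and 52.2 CPM in EV cells with romidepsin and 73.6, 68.9 and 64.4 CPM with DMSO. Replicate 3 of NRF2 cells with DMSO was the highest of its group by a wide margin, and romidepsin libraries stayed below DMSO libraries in both lines. The fall was 1.54-fold in NRF2 cells (log2 -0.63 ± 0.11; edgeR adjusted p = 0.000114) and 1.35-fold in EV cells (-0.44 ± 0.10; 0.00185). Without that library the change in NRF2 cells was -0.48 (edgeR adjusted p = 6.29e-09).

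Klf3 (chromosome 5, 64803388 to 64832901, plus strand; ENSMUSG00000029178.14), the CtBP-binding repressor, measured 87.7, 88.4 and 88.8 CPM in NRF2 cells with romidepsin and 132, 140 and 162 CPM with DMSO. EV cells had 85.2, 88.9 and 79.4 CPM with romidepsin and 123, 111 and 112 CPM with DMSO. With DMSO every NRF2 library was above every EV library, and with romidepsin the lines overlapped. It fell 1.64-fold with romidepsin in NRF2 cells (log2 -0.71 ± 0.07; edgeR adjusted p = 2.42e-08) and 1.36-fold in EV cells (-0.44 ± 0.07; 1.1e-05). The difference between these falls was -0.27 (95% interval -0.47 to -0.07) and did not pass the test over all genes (edgeR adjusted p = 0.0674). It was called when any single replicate of NRF2 cells with DMSO was left out (0.0192, 0.0465 and 0.0339 for replicates 1, 2 and 3), when replicate 1 of the EV group with DMSO was left out (0.0454), and with no filter on low counts (0.0335).

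The 4 Sin3A-binding members all fell in both lines, as did 34.6% of all genes tested. Klf9 (chromosome 19, 23141226 to 23168134, plus strand; ENSMUSG00000033863.2), a target of glucocorticoid and thyroid hormone receptors, had 28.5, 25.2 and 26.1 CPM in NRF2 cells with romidepsin and 45.8, 46.3 and 49.1 CPM with DMSO. EV cells had 27.1, 26.5 and 24.7 CPM with romidepsin and 44.5, 39.7 and 42.1 CPM with DMSO. The groups were far apart, and the fold was 1.77 in NRF2 cells (log2 -0.82 ± 0.06; edgeR adjusted p = 1.29e-09) and 1.62 in EV cells (-0.69 ± 0.06; 2.08e-08). Klf13 (chromosome 7, 63886351 to 63938915, minus strand; ENSMUSG00000052040.10), known from lymphocytes, had 21.4, 21.7 and 22.8 CPM in NRF2 cells with romidepsin and 37.7, 42.0 and 34.6 CPM with DMSO. In EV cells it had 27.3, 27.2 and 27.5 CPM with romidepsin and 42.9, 40.6 and 42.8 CPM with DMSO. The EV romidepsin libraries lay close together and above all NRF2 romidepsin libraries. Romidepsin lowered Klf13 by 1.74-fold in NRF2 cells (log2 -0.80 ± 0.07; edgeR adjusted p = 3.91e-09) and 1.54-fold in EV cells (-0.62 ± 0.07; 1.06e-07). Without replicate 3 of NRF2 cells with DMSO the difference between the lines was called for Klf13 (log2 -0.26, edgeR adjusted p = 0.0207), whereas with all libraries it was -0.18 (0.219).

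Klf10 and Klf11, induced early by TGF-beta and known to restrain growth, also fell. Klf10 (chromosome 15, 38291463 to 38300706, minus strand; ENSMUSG00000037465.10) had 30.9, 33.2 and 30.9 CPM in NRF2 cells with romidepsin and 45.9, 43.5 and 48.4 CPM with DMSO, and 47.6, 43.4 and 45.4 CPM in EV cells with romidepsin and 57.9, 56.0 and 56.7 CPM with DMSO. EV cells with romidepsin overlapped NRF2 cells with DMSO, and NRF2 cells with romidepsin were lowest. The romidepsin fall was 1.44-fold in NRF2 cells (log2 -0.53 ± 0.06; edgeR adjusted p = 1.17e-07) and 1.251-fold in EV cells (-0.32 ± 0.05; 3.61e-05). The difference between the lines was -0.21 (95% interval -0.37 to -0.04; edgeR adjusted p = 0.0847) and was called with replicate 2 of the NRF2 group with DMSO left out (0.037). Klf11 (chromosome 12, 24651274 to 24662789, plus strand; ENSMUSG00000020653.12) had 7.62, 7.14 and 6.96 CPM in NRF2 cells with romidepsin and 12.4, 11.4 and 10.7 CPM with DMSO. EV cells had 6.24, 6.26 and 6.42 CPM with romidepsin and 12.4, 9.30 and 10.6 CPM with DMSO. Its fall was 1.59-fold in NRF2 cells (log2 -0.67 ± 0.11; edgeR adjusted p = 1.51e-05) and 1.71-fold in EV cells (-0.77 ± 0.11; 4.24e-06).

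**Figure D3:**
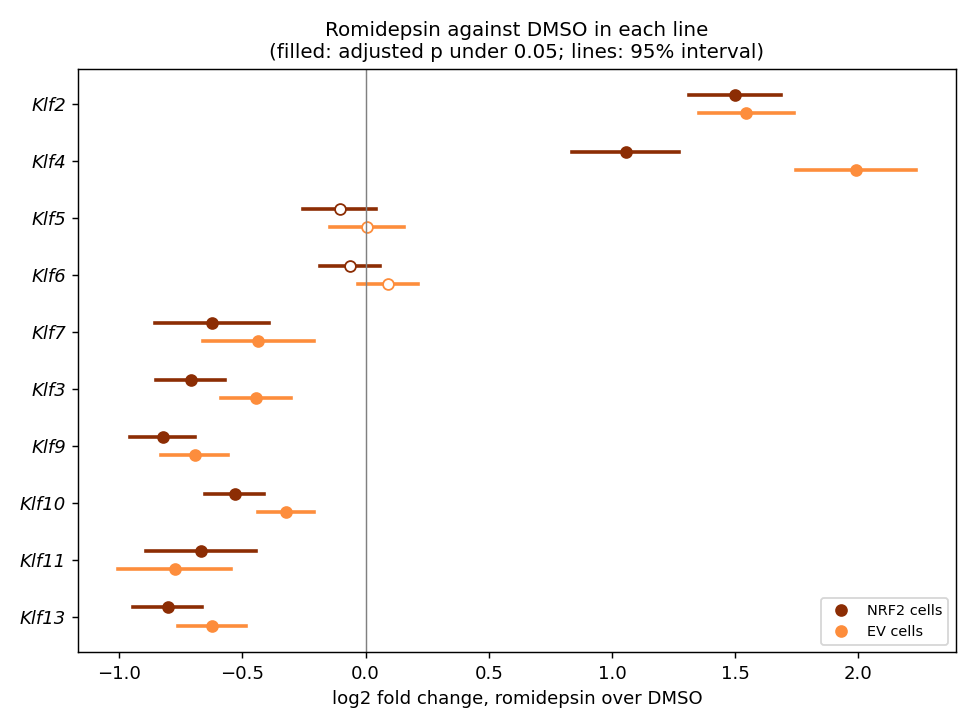
Log2 fold change of romidepsin over DMSO for each transcript in NRF2 cells (dark) and EV cells (light), from the edgeR fit, with lines for the 95% interval and filled points for an adjusted p under 0.05. Klf2 and Klf4 lie to the right and 6 members to the left in both lines; for Klf4 the intervals of the lines do not overlap (1.06 and 1.99).

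Between the lines, Klf2 was higher and Klf10 lower in NRF2 cells under both treatments. With DMSO, 4 members were higher in NRF2 cells than in EV cells and 1 was lower, against 19.3% and 16.9% of all genes tested (36.3% in either direction). Klf4 rose most, 2.15-fold (log2 1.10 ± 0.12; edgeR adjusted p = 1.44e-06), with 95.2% of all genes below it in log2 fold change. Klf2 was 1.46-fold higher (log2 0.55 ± 0.09; edgeR adjusted p = 0.000315), Klf3 1.26-fold (0.33 ± 0.07; 0.000836) and Klf5 1.23-fold (0.30 ± 0.07; 0.00312). Klf10 was 1.24-fold lower (log2 -0.31 ± 0.05; edgeR adjusted p = 0.000224). Libraries of the lines did not overlap for 5 members higher and 1 lower in NRF2 cells, against 21.8% and 20.7% of all genes (42.5% in either direction). The 5 calls held with each library left out in turn, and with all other settings tried.

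The remaining members did not pass the test with DMSO. The libraries of Klf9 did not overlap between the lines, and its log2 fold change was 0.16 (95% interval 0.03 to 0.29; edgeR adjusted p = 0.0538); it was called with a filter of 1 CPM in 3 libraries (0.0436), with limma-voom (0.0469), and with replicate 1 left out of the EV group with DMSO (0.0334) or of the NRF2 group with romidepsin (0.0444). Klf7 was at -0.20 (edgeR adjusted p = 0.151) and was called without replicate 3 of NRF2 cells with DMSO (log2 -0.36; 4.56e-06). Klf6, Klf11 and Klf13 were at 0.13, 0.09 and -0.14 (edgeR adjusted p = 0.0957, 0.524 and 0.103). Of these, Klf6 was called without replicate 1 of NRF2 cells with DMSO (0.0194), and Klf13 without replicate 2 of that group (0.0182) and with library size as the only scaling (0.0393).

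With romidepsin, 2 members were higher and 3 lower in NRF2 cells than in EV cells, against 23.0% and 22.4% of all genes (45.4% in either direction). Klf2 was 1.41-fold higher (log2 0.50 ± 0.08; edgeR adjusted p = 0.000214). The rise of Klf5 was 1.14-fold (log2 0.18 ± 0.07; edgeR adjusted p = 0.0404) and was lost without 7 of the 12 libraries, each left out in turn (adjusted p of up to 0.16). These were each replicate of NRF2 cells with romidepsin, and replicates 2 and 3 in both EV groups. Klf10 was 1.43-fold lower (log2 -0.52 ± 0.06; edgeR adjusted p = 1.32e-06), Klf7 1.31-fold (-0.39 ± 0.11; 0.00945) and Klf13 1.245-fold (-0.32 ± 0.07; 0.00113). Klf4, called with DMSO, was at log2 0.17 with romidepsin (95% interval -0.04 to 0.38; edgeR adjusted p = 0.172), and was called with the romidepsin groups fitted alone (0.024). Klf3 was at 0.06, Klf6 at -0.03, Klf9 at 0.03 and Klf11 at 0.20, none of them called (edgeR adjusted p = 0.475, 0.715, 0.772 and 0.16). Libraries of the lines did not overlap for 3 members higher (Klf2, Klf5 and Klf11) and 3 lower, against 30.8% and 30.4% of all genes (61.2% in either direction).

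**Figure D4:**
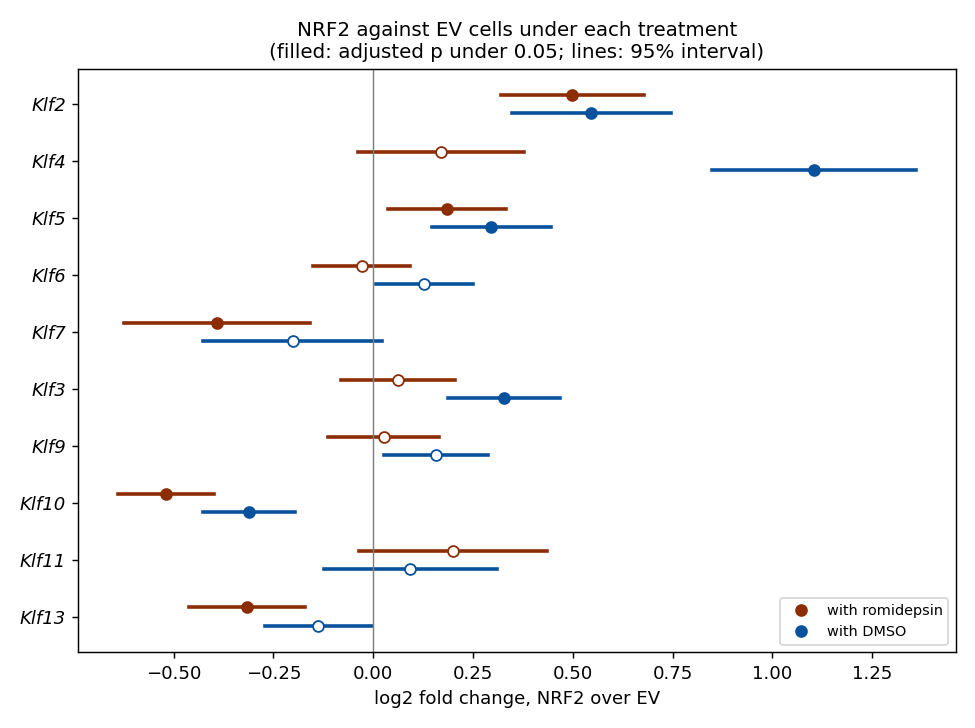
Log2 fold change of NRF2 over EV cells for each transcript with romidepsin (dark) and with DMSO (blue), from the edgeR fit, with lines for the 95% interval and filled points for an adjusted p under 0.05. Klf2 lies right of 0 and Klf10 left of 0 under both treatments, and Klf4 lies at 1.10 with DMSO and 0.17 with romidepsin.

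The comparison of NRF2 with EV cells under DMSO and that of romidepsin with DMSO in EV cells share the EV libraries with DMSO, and their values for the members are therefore only set side by side. Klf2 and Klf4 were higher in both, at 0.55 and 1.55 for Klf2 and at 1.10 and 1.99 for Klf4 (log2). Klf3 was higher with NRF2 (0.33) and lower with romidepsin (-0.44), and Klf10 was lower in both (-0.31 and -0.32).

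Levels were compared between genes per kilobase of annotated exons (GENCODE M21). With romidepsin Klf2 was the most abundant member, at 71.6 ± 4.64 CPM per kb in NRF2 cells and 50.7 ± 2.48 in EV cells (SD, n = 3), followed by Klf6 at 42.0 ± 0.255 and 42.9 ± 1.24. With DMSO Klf6 was first, at 44.0 ± 4.51 CPM per kb in NRF2 cells and 40.2 ± 1.38 in EV cells, with Klf2 next, at 25.2 ± 3.80 and 17.3 ± 1.03. Klf5 had rank 3 in each group, at 15.1 to 18.6 CPM per kb, and in NRF2 cells with DMSO its libraries overlapped those of Klf2. The lengths matter for this order: per kb of the longest coding transcript Klf2 had rank 4 in NRF2 cells and rank 5 in EV cells with DMSO, and rank 1 with romidepsin in both lines. By that length Klf5 had rank 2 with DMSO and rank 3 with romidepsin in both lines.

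Below these, Klf3, Klf4, Klf7, Klf9 and Klf10 spanned 2.09 to 13.6 CPM per kb over the groups. Neighbours whose libraries overlapped were Klf3 and Klf10 in NRF2 cells with romidepsin, Klf4 and Klf3 in EV cells with romidepsin, Klf13 and Klf4 in NRF2 cells with DMSO, and Klf9 and Klf7 in EV cells with DMSO. Klf11 was lowest in 3 groups, at 1.67 ± 0.079, 1.45 ± 0.0226 and 2.65 ± 0.205 CPM per kb in NRF2 cells with romidepsin, EV cells with romidepsin and NRF2 cells with DMSO. In EV cells with DMSO Klf4 was lowest at 2.09 ± 0.410, and its libraries overlapped those of Klf11 at 2.48 ± 0.357. With romidepsin Klf4 had rank 4 in NRF2 cells and rank 5 in EV cells. Per kb of the longest coding transcript it had rank 6 in both, below Klf3 and Klf10.

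Summed over the 10 transcripts the level was 170 ± 4.71 CPM per kb in NRF2 cells and 152 ± 1.22 in EV cells with romidepsin, and 141 ± 5.77 and 124 ± 4.22 with DMSO. Klf2 made up 42.0 ± 1.59% of this sum in NRF2 cells with romidepsin and 18.0 ± 3.35% with DMSO, and 33.3 ± 1.37% in EV cells with romidepsin and 14.0 ± 0.676% with DMSO. The share of Klf6 was 24.7 ± 0.594% and 31.2 ± 1.89% in NRF2 cells and 28.2 ± 1.04% and 32.5 ± 0.190% in EV cells, in the same order of treatments. Not scaled for length, the sums were 649 ± 7.63 CPM in NRF2 cells and 626 ± 5.47 in EV cells with romidepsin, and 697 ± 50.9 and 629 ± 23.8 with DMSO, so the larger sums with romidepsin held for the length-scaled level, in which the short Klf2 transcript weighs most.

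**Figure D5:**
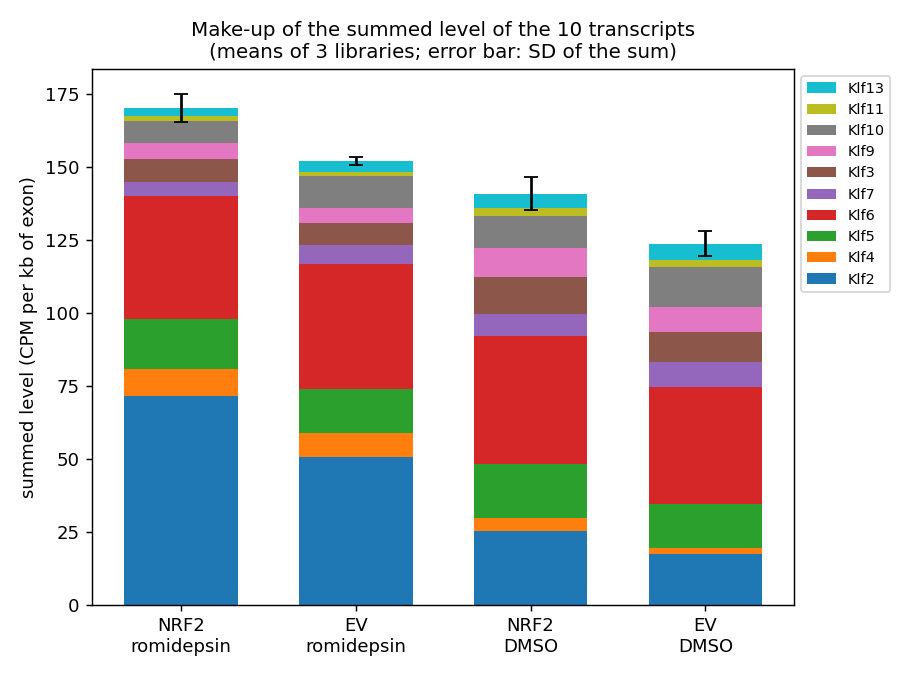
Mean level of each transcript in CPM per kb of exon, stacked by group, with an error bar for the SD of the sum over 3 libraries. Klf2, the lowest segment, takes 42.0% of the sum in NRF2 cells with romidepsin and 14.0% in EV cells with DMSO, while the Klf6 segment stays between 40.2 and 44.0 CPM per kb.

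The genes with the most similar pattern over the 12 libraries were found among 9859 tested genes, by the root mean square difference of centred log2 CPM. For Klf2 they were Sec11c, a signal peptidase subunit, and Dgat2, an enzyme of triglyceride synthesis, at 0.08 and 0.09 (log2), where Klf2 itself had an SD of 0.85. For Klf4 they were Entpd5 and Cercam, at 0.18 and 0.19, and Klf4 and Klf2 were each other's nearest member at 0.28. Those of Klf3 were Wbp4 and Zmym2, those of Klf9 Supt16, a chaperone of histones, and Gpm6b, and those of Klf13 Mrto4 and Csnk1d. Klf7 was nearest to Golim4 and the acetyltransferase gene Kat6a, Klf10 to Zfp36l2, an mRNA decay factor, and N4bp1, and Klf11 to Tmem164 and Dcaf17. Klf5 was nearest to Mapk1ip1l and Gcc2, and Klf6 to Sdha, a subunit of succinate dehydrogenase, and Ccdc47. All these differences other than those of Klf4 were between 0.04 and 0.10, and they are not relative to a gene's own spread. Klf4 had an SD of 0.90 and a Pearson correlation of 0.979 with Entpd5. For Klf6 the SD was 0.08 and the correlation with Sdha 0.889. The 12 libraries share groups and scaling, so the values are a description.

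Of 16 other Klf and Sp genes in the table, Klf14, Klf15 and Klf17 had no count in any library and 10 could be tested. With romidepsin 5 were higher and 3 lower in NRF2 cells (3 and 3 leaving out the outlying NRF2 library with DMSO), and 4 and 3 in EV cells, with a median log2 fold change of 0.37 and 0.30; 79.8% and 76.5% of all genes were called. The general GC box factor Sp1 fell to 90.4 ± 0.734 CPM in NRF2 cells with romidepsin, against 135 ± 0.882 with DMSO (log2 -0.57; edgeR adjusted p = 2.55e-09), and to 87.2 ± 2.36 against 135 ± 7.48 CPM in EV cells (-0.63; 1e-09). Sp2 fell as well, with log2 fold changes of -1.29 in NRF2 cells and -1.01 in EV cells. Klf16, with group means of 37.2 to 40.8 CPM, was not called with romidepsin in either line. Its log2 fold change was 0.13 in NRF2 cells (edgeR adjusted p = 0.114) and 0.015 in EV cells (0.863). Sp6 was at 4.06 ± 0.114 CPM in NRF2 cells with romidepsin against 0.244 ± 0.0975 CPM with DMSO, and at 2.83 ± 0.323 against 0.0830 ± 0.0329 CPM in EV cells. Klf8 rose to 4.98 ± 0.579 CPM in NRF2 cells with romidepsin, against 0.945 ± 0.259 with DMSO, and to 5.96 ± 0.462 against 3.79 ± 0.0519 CPM in EV cells. The rise of Klf8 was larger in NRF2 cells (log2 difference 1.70 ± 0.23; edgeR adjusted p = 8.81e-05), the direction opposite to that of Klf4.

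Partners of these factors were counted in the same way. Of 13 genes of cofactors, 3 were higher and 8 lower with romidepsin in NRF2 cells and 2 and 8 in EV cells. This was near the 79.8% and 76.5% of all genes called in either direction. Leaving out replicate 3 of NRF2 cells with DMSO, the counts were 2 and 9 in NRF2 cells and 2 and 10 in EV cells. The median log2 fold change of the 13 genes was -0.39 and -0.475 with all libraries. Among them the corepressor gene Ctbp1, whose product partners Klf3, fell to 63.6 ± 2.29 CPM in NRF2 cells with romidepsin, against 170 ± 24.9 with DMSO (log2 -1.42; edgeR adjusted p = 2.16e-10), and to 81.9 ± 1.03 against 203 ± 8.10 CPM in EV cells (-1.31; 6.8e-10). The acetyltransferase genes Kat2b, Ep300 and Crebbp fell in both lines, with log2 fold changes of -1.48 to -1.01. The values of Sin3a were 0.00 and -0.04 in NRF2 and EV cells (edgeR adjusted p = 0.977 and 0.564), and Hdac1 rose by 0.87 and 0.80.

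Genes upstream of the members were counted by arm, beside 40.5% of all genes called higher and 39.3% lower in NRF2 cells and 39.1% and 37.4% in EV cells, and none of these small counts is read as particular to its arm. Of 7 genes of the ERK5 and MEF2 arm, known to drive Klf2 and Klf4, 2 were higher and 5 lower in NRF2 cells, and 1 and 4 in EV cells (2 and 4 leaving out replicate 3 of NRF2 cells with DMSO). The kinase gene Map2k5, which activates ERK5, fell to 12.8 ± 0.904 CPM in NRF2 cells with romidepsin, against 32.6 ± 1.57 with DMSO, and to 13.6 ± 0.686 against 32.3 ± 2.10 CPM in EV cells. Mef2c rose to 2.41 ± 0.179 CPM in NRF2 cells with romidepsin, against 0.414 ± 0.122 with DMSO, and to 4.41 ± 0.379 against 1.74 ± 0.128 CPM in EV cells, and was lower in NRF2 than in EV cells with DMSO (log2 -2.12; edgeR adjusted p = 2.47e-06). Of 8 TGF-beta genes, the arm of Klf10 and Klf11, 1 was higher and 6 lower in NRF2 cells and 0 and 6 in EV cells, among them Tgfb3 (log2 -1.24 and -1.42) and Smad2 (-1.05 and -0.87). Of 5 nuclear receptor and FOXO genes 3 were higher and 1 lower in both lines. Thrb, a receptor of thyroid hormone, which induces Klf9, fell in NRF2 cells and EV cells (log2 -1.32 and -0.98). Thra, the other receptor of this hormone, rose by 0.88 in each line. With romidepsin Thra was at 36.3 ± 2.45 CPM in NRF2 cells and 33.4 ± 1.47 in EV cells, and Thrb at 5.11 ± 0.953 and 3.50 ± 0.273 CPM. The glucocorticoid receptor gene Nr3c1 rose by 0.285 in NRF2 cells and 0.14 in EV cells. Foxo1, a known activator of Klf2, rose by 1.11 and 1.17.

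Ubiquitin ligases that act on these proteins had 2 genes higher and 3 lower of 5 in NRF2 cells (1 and 3 leaving out replicate 3 of NRF2 cells with DMSO), and 1 and 3 in EV cells (2 and 3 without it), again with 79.8% and 76.5% of all genes called. Siah1a, whose product targets Klf10, fell in NRF2 and EV cells (log2 -1.18 and -0.91), as did Wwp1, which targets Klf2 and Klf5 (-0.68 and -0.38). Fbxw7, which targets Klf2 and Klf5, rose by 0.61 and 0.50. Of 12 reported targets of the family 11 were tested, and 6 were higher and 3 lower in NRF2 cells and 4 and 4 in EV cells. Leaving out replicate 3 of NRF2 cells with DMSO, the counts in NRF2 cells were 5 and 3. In either direction 79.8% of all genes were called in NRF2 cells and 76.5% in EV cells, near the share among these targets. Cdkn1a, the gene of the inhibitor p21, which is activated by Klf4 and Klf6, reached 54.2 ± 2.99 CPM in NRF2 cells with romidepsin, against 8.70 ± 0.232 with DMSO, and 41.1 ± 1.69 against 3.78 ± 0.925 CPM in EV cells. S1pr1, a Klf2 target in lymphocytes, rose by 3.61 and 3.18 (log2), while Thbd, a Klf2 target in endothelium, fell (log2 -1.76 and -1.06). Ccnd1, which encodes cyclin D1 and is activated by Klf5 and repressed by Klf4, fell in both lines (log2 -2.46 and -1.87).

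Klf2 and Klf4 are also known from endothelial, immune and stromal cells, and several of their markers were higher with romidepsin, most of them at low levels. The 5 endothelial markers summed to 6.61 to 8.42 CPM in NRF2 cells with romidepsin, 5.70 to 8.64 in EV cells with romidepsin, 4.18 to 5.01 in NRF2 cells with DMSO and 5.71 to 10.1 in EV cells with DMSO. Nearly all of this was Pecam1, which was higher with romidepsin in NRF2 cells (log2 0.59, edgeR adjusted p = 0.0242) and at -0.48 in EV cells (0.0536). Kdr was called higher in both lines, with at most 0.741 CPM in any romidepsin library and 1 count over the 3 libraries of each DMSO group. Leaving out replicate 3 of NRF2 cells with DMSO, 1 of these 2 markers was called higher in NRF2 cells, against 2 with all libraries. Cdh5 had no count with DMSO and at most 0.142 CPM with romidepsin. The 6 immune markers summed to 66.8 to 70.7 CPM and 48.4 to 53.1 CPM in NRF2 and EV cells with romidepsin, and to 3.92 to 4.57 and 2.83 to 4.44 CPM with DMSO. This was Cd68, which encodes a lysosomal protein, at 68.4 ± 1.89 and 49.6 ± 2.36 CPM with romidepsin, whereas the pan-leukocyte marker Ptprc, also called higher in both lines, had at most 0.566 CPM and Cd3e and Adgre1 were at or near 0. The 6 fibroblast markers summed to 15.1 to 17.8 and 12.3 to 13.1 CPM with romidepsin and to 3.50 to 7.27 and 3.43 to 4.44 CPM with DMSO in NRF2 and EV cells. Of the 3 that could be tested, Col1a1 rose with romidepsin in NRF2 and EV cells (log2 3.33 and 3.50), as did Pdgfra (1.70 and 1.83), and Thy1 rose in NRF2 cells (0.72) and was at 0.30 in EV cells (edgeR adjusted p = 0.248). Their levels with romidepsin were at most 8.23 CPM in any library. Of 6 epithelial markers tested, 5 were higher and Cdh1 lower with romidepsin in both lines, where 79.8% and 76.5% of all genes were called. Epcam rose most (log2 6.71 in NRF2 cells and 6.55 in EV cells), from at most 0.0983 CPM in any DMSO library. The 10 markers summed to 9420 to 9910 CPM in NRF2 cells and 6360 to 6500 CPM in EV cells with romidepsin. With DMSO the sums were 5480 to 6190 and 3750 to 3780 CPM. The part of these shifts in the levels of the Kruppel-like factors was not tested.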

How the data were processed

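Poly-A RNA libraries from 12 samples of KP1 cells were analysed in 4 groups of 3. The authors deposited estimated counts per gene symbol, made with kallisto 0.44.0 after bcl2fastq 2.19 for the build GRCm38, per the submitters' processing notes; all values in the deposited table are whole numbers. The deposited normalized signal is the same counts divided by 1 factor per library, and the notes name DESeq2 without a version. How reads shared by related transcripts were split is not given in the sources used here.

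From these counts TMM factors and CPM were computed, and genes were kept by the edgeR default filter on the 4 groups (13502 of 35013; 12331 had no count). Differences were tested with the two-sided quasi-likelihood test of edgeR 4.0.16 (R 4.3.3, robust) on the 12 libraries together, with 1 coefficient per group, with Benjamini-Hochberg adjustment over all genes tested and calls under 0.05. There were 5 comparisons: romidepsin against DMSO in each line, NRF2 against EV under each treatment, and the difference between the lines in the romidepsin effect. Standard errors were derived from the fold change and its F statistic. Library totals were 16842824 to 28003010, and floors cover counting error only.

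Other settings tried were scaling by RLE, by upper quartiles or by the library size only, filters of none or of 1 CPM in 3 libraries, DESeq2 1.42.0, limma 3.58.1 (voom, and its trend method on log2 of the deposited signal plus 1 or 0.5), groups fitted alone, the replicate number as a block, and each library left out. The outlying library, replicate 3 of the NRF2 group with DMSO, was also left out of the list counts, a choice made after seeing the data. The code was tested on simulated data.

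The members and gene lists were chosen with earlier results of these data known. The genes named are all members, Nfe2l2, and the 2 genes nearest to each member with a mean of at least 5 CPM. From each list and comparison, genes to name were taken from up to 4 called genes with the largest change and a mean of at least 1 CPM. Not all genes that met this rule are named. For the difference between the lines, all called list genes averaging 1 CPM or more are named. Sin3a, Hdac1, Klf16 and markers averaging under 1 CPM were named after their values were seen. Positions and lengths are from GENCODE M21 and promoters from RefSeq. Replicate numbers did not pair the samples.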

Additional observations from a re-analysis of the deposited data

Results flagged for a closer look

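The rise of Klf4 with romidepsin differed between the lines by a test of the difference itself: log2 -0.93 ± 0.16 (SE), smaller in NRF2 cells than in EV cells (edgeR adjusted p = 0.000605). It held in 22 of 22 alternatives, between -1.09 and -0.83. With DMSO Klf4 was at 13.5 ± 1.06 CPM in NRF2 cells and 6.38 ± 1.25 CPM in EV cells, and with romidepsin at 28.1 ± 1.87 and 25.0 ± 2.38 CPM (SD, n = 3), so the lines differed with DMSO and overlapped with romidepsin.

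Among the gene lists, markers included, the genes averaging 1 CPM or more that follow also had a romidepsin effect that differed between the lines in the same edgeR test (adjusted p of at most 0.0327). It was higher in NRF2 cells for Tgfbi (log2 1.76), Klf8 (1.70), Mef2c (1.249), Pecam1 (1.07) and Sin3b (0.283). The call of Pecam1 depended on the outlying NRF2 library with DMSO. With that library left out, 0 of 2 endothelial markers tested were called for this difference, against 1 with all libraries. The effect was lower in NRF2 cells for Cdkn1a (log2 -0.765), Thbd (-0.695), Ccnd1 (-0.589), Ccnb1 (-0.472), Krt19 (-0.469), Cdh1 (-0.361), Wwp1 (-0.299), Rbbp7 (-0.225) and Tgfbr2 (-0.218). Of all genes this test called 5.53% as higher and 10.2% as lower. By list, it called 1 higher and 4 lower of 11 targets tested, and 1 and 1 of 13 cofactor genes. Of 10 other Klf and Sp genes it called 1 and 0, and of 8 TGF-beta genes 0 and 1. None of these small counts is read as particular to its list.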

How the results depend on the processing

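The 10 transcripts in 5 comparisons were recomputed under 22 or 23 alternatives each, 1140 values in all, of which 1095 kept their direction and their side of the threshold, 10 lost the call, 21 gained one and 14 changed sign. The calls for Klf2, Klf3, Klf4, Klf7, Klf9, Klf10, Klf11 and Klf13 with romidepsin held in both lines under each alternative run. The values that changed sign were not called. For Klf5 with romidepsin they were -0.00554 in EV cells with no filter, and 0.00419 and 0.0355 in NRF2 cells with upper-quartile factors and library size alone; for Klf6 in NRF2 cells they were 0.0452 and 0.0765. With each library left out in turn, the ranges were -0.0279 to 0.0446 for Klf5 in EV cells and -0.119 to 0.000388 for Klf6 in NRF2 cells, both with romidepsin, -0.0417 to 0.0675 for Klf9 in NRF2 against EV cells with romidepsin, and -0.176 to 0.00341 for Klf2 in the difference between the lines. Members lower in NRF2 than in EV cells with DMSO numbered 2 with library size alone (1 to 2 with a library left out). Members higher with romidepsin in NRF2 than in EV cells numbered 1 with library size alone, with a pseudocount of 0.5 and with the replicate block (1 to 2 with a library left out), each time through the loss of Klf5 (adjusted p = 0.0628, 0.0503 and 0.0503). Members lower in the difference between the lines numbered 2 with no filter and 1 to 3 with a library left out. Over all genes this difference called 747 higher and 1380 lower, with ranges of 465 to 921 and 959 to 2127; the lowest count of higher genes came without replicate 2 of EV cells with romidepsin and the highest count of lower genes without replicate 3 of NRF2 cells with DMSO. With library size alone 44.4% in place of 53.3% of the calls of NRF2 against EV cells with DMSO were higher. Libraries with the same replicate number did not deviate together (correlations of -0.123 to 0.0625 over 18 pairs), and the replicate block changed no call other than that of Klf5. The cause of these changes was not tested. Counts per library went down to 109 for Klf4 and 122 for Klf11, and to 400 or more for the other members.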
